A study of Mus musculus with 6 samples.

Results

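The interleukin-1 (IL-1) family genes described here were the ligands Il1a, Il1b, Il33 and Il18, the receptor antagonist Il1rn, and the receptor chains Il1r1, Il1rl1 and Il1rap. These 8 genes were taken by symbol from the 20475 genes of an RNA-seq table covering 6 libraries in 3 groups, and all 8 were found once and passed the filter on low values. All libraries came from NIH3T3, an established line of mouse embryonic fibroblasts, at passage 5 in medium with fetal bovine serum, with RNA taken 48 h after treatment. In 2 libraries the cells had received extracellular vesicles (EVs), membrane-bound particles shed by cells, from MDA-MB-231, a human line derived from a triple-negative breast carcinoma. In 2 libraries the EVs came from MCF10A, human mammary epithelial cells that do not form tumours. The 2 control libraries came from cells given phosphate-buffered saline (PBS), the carrier of the EVs, and no EVs. All results are thus for 1 fibroblast line, 1 time and 1 donor line per kind of EV. Nothing in the labels states that replicates came from separate cultures, and the p-values therefore measure only the spread between these libraries, which may be technical.

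IL-1 alpha and IL-1 beta signal through the receptor encoded by Il1r1, which recruits the accessory chain encoded by Il1rap. IL-33 binds ST2, the product of Il1rl1, which pairs with the same accessory chain. Both receptors signal through MyD88 and IRAK kinases to NF-kB, and in fibroblasts they are known for inducing cytokines, chemokines, prostaglandin synthesis and matrix proteases. The IL-1 receptor antagonist, encoded by Il1rn, occupies the IL-1 receptor without signalling. IL-1 alpha and IL-33 are stored in cells and released on damage, whereas IL-1 beta and IL-18 are made as precursors that caspase-1 cleaves.

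RefSeq start sites of the mouse build GRCm38.p6 gave 13 promoter windows for the 8 genes, each of 300 bases, 250 before the start site and 50 after it. Shown here, 5′ to 3′ along the strand of the gene, are 1 window each of the 4 genes with the largest differences from PBS and of Il1rl1, the most abundant per length. Capitals mark a match to the TATA box letters TATAAA or to the AP-1 letters TGANTCA on either strand.
Il1a, chr2:129309923-129310222, minus strand: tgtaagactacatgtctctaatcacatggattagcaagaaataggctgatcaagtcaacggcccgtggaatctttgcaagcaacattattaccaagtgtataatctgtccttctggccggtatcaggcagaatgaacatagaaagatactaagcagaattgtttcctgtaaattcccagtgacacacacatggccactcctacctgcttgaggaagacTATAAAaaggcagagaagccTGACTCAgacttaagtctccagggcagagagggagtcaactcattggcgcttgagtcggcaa
Il1b, chr2:129371090-129371389, minus strand: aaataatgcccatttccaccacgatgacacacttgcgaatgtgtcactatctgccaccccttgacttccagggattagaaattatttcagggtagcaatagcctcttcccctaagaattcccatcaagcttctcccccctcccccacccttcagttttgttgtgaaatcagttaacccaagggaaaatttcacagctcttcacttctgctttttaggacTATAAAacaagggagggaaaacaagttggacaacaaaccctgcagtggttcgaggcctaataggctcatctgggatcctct
Il1rn, chr2:24336610-24336909, plus strand: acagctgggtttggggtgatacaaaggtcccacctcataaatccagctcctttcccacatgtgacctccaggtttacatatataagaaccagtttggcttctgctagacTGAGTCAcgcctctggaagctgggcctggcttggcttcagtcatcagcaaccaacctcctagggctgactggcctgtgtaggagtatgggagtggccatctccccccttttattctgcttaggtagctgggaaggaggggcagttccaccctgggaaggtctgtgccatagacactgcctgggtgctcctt
Il33, chr19:29945540-29945839, plus strand: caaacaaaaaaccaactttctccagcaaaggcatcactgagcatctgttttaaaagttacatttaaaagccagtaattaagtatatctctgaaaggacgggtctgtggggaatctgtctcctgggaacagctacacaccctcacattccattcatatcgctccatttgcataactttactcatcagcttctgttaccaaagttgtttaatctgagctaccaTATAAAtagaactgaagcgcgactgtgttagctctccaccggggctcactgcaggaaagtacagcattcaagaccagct
Il1rl1, chr1:40439379-40439678, plus strand: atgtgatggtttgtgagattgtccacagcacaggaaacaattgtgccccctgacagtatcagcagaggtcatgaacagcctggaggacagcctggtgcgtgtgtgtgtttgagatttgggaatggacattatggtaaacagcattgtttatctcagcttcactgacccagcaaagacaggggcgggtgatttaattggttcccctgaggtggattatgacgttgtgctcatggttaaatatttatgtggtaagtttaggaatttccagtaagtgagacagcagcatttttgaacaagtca

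The TATA box letters began 32 bases before the start site in Il1a, 31 in Il1b and 29 in the Il33 window shown. The AP-1 letters began 12 bases before the start site in Il1a and 141 bases before it in the Il1rn window shown. On either strand, and with no overlap between matches of different motifs, the TATA box letters were in 6 of the 13 windows, of 5 genes, against 13.62% of 32841 mouse promoter windows of the same length. The matches in windows not shown began 203 bases before the start site in Il33, 175 before it in Il18 and at position 15 past it in Il1rn. Those of Il18 and Il1rn were on the opposite strand. Windows 2 and 3 of Il1rn overlap in the genome, so the 13 windows are not all separate. AP-1 letters were in 2 of the 13 windows, against 7.81% of all windows. The NF-kB consensus was in 1 window, of Il1r1, against 8.462% of all windows, and the cyclic AMP response element letters TGACGTCA were in 0, against 1.79%. A match is a description of these letters only, and which start site the cells used was not measured.

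The values are normalised reads per gene, adjusted by the authors to a common library size, given in each group as replicate 1 and then replicate 2. Fold changes are on the log2(normalised reads + 1) scale. A gene is said to have risen or fallen where limma, fitted over all 15025 genes tested, gave a Benjamini-Hochberg adjusted p under 0.05. Depth was 22451173 to 29315530 reads per library, at which 3 reads, taken as the limit behind a count of 0, correspond to 0.102 to 0.134 CPM, the unit of reads scaled to a fixed library total. The limit covers counting error only. Fibroblast identity was checked with 9 marker genes, which summed to 369818 to 377857 normalised reads with MDA-MB-231 EVs, 373271 to 383313 with MCF10A EVs and 428829 to 429542 with PBS, and none was at 0. Relative to PBS, 5 fell and 1 rose with MDA-MB-231 EVs, and 7 fell and 1 rose with MCF10A EVs. Over all genes, 34.8% and 31.7% were called. Col3a1, named after its values were seen, rose 1.37- and 1.74-fold (limma adjusted p = 1.13e-08 and 8.94e-11).

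Transcripts of the antagonist and of the ligands other than Il18 were lower after EVs, more so after those of the carcinoma line. With MDA-MB-231 EVs, Il1a, Il1b, Il33 and Il1rn were 2.25- to 3.05-fold lower than with PBS, and Il1r1 was 1.38-fold lower. With MCF10A EVs the same 5 transcripts fell by 1.18- to 2.28-fold relative to PBS, while Il1rl1 was 1.14-fold higher. Il1rap and Il18 passed the test in none of the 3 comparisons in the authors' scaling. Beside these falls, the summed level of macrophage and leukocyte markers ran in the same order of groups. Cd14 made up almost all of that sum, and most other tested markers of the list did not share the order. The values are given with the other markers at the end.

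Of the 8 genes, 5 fell and 0 rose with MDA-MB-231 EVs relative to PBS, where 34.8% of all genes tested were called, 16.9% lower and 17.9% higher. With MCF10A EVs relative to PBS, 5 fell and 1 rose, where 31.7% of all genes were called, 14.6% lower and 17.1% higher. Between the 2 kinds of EV, 6 were lower and 0 higher with MDA-MB-231 EVs than with MCF10A EVs, where 10.1% of all genes were lower and 6.84% higher. The median log2 change of the 8 genes was -0.82, -0.27 and -0.32 in these comparisons, in the same order, beside medians of 0.01, 8.14e-05 and -0.00063 over all genes. Scaled to library totals in place of the authors' adjustment, the called genes that were higher made up 67.8% instead of 51.4% with MDA-MB-231 EVs relative to PBS, and 61.7% instead of 40.4% between the EVs. At an unadjusted p under 0.05 in limma, and by adjusted p in edgeR and in DESeq2, 0 of the 8 genes were likewise higher with MDA-MB-231 EVs than with PBS or MCF10A EVs. Among all genes, 3311, 2836 and 1756 were higher than with PBS in these settings, and 1928, 1351 and 577 were higher than with MCF10A EVs. Other scalings did call a rise with MDA-MB-231 EVs relative to PBS. These were Il1rl1 with quantile scaling (log2 change 0.25, limma adjusted p = 4.41e-05) and Il1rap with library totals (log2 change 0.12, limma adjusted p = 0.00258). Both comparisons with PBS use the same PBS libraries, and the third uses both EV groups, so the 3 are not independent. The 8 genes and the lists below were chosen with earlier results of these data known. Their counts beside the shares over all genes are therefore descriptions, not independent evidence.

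**Figure D1:**
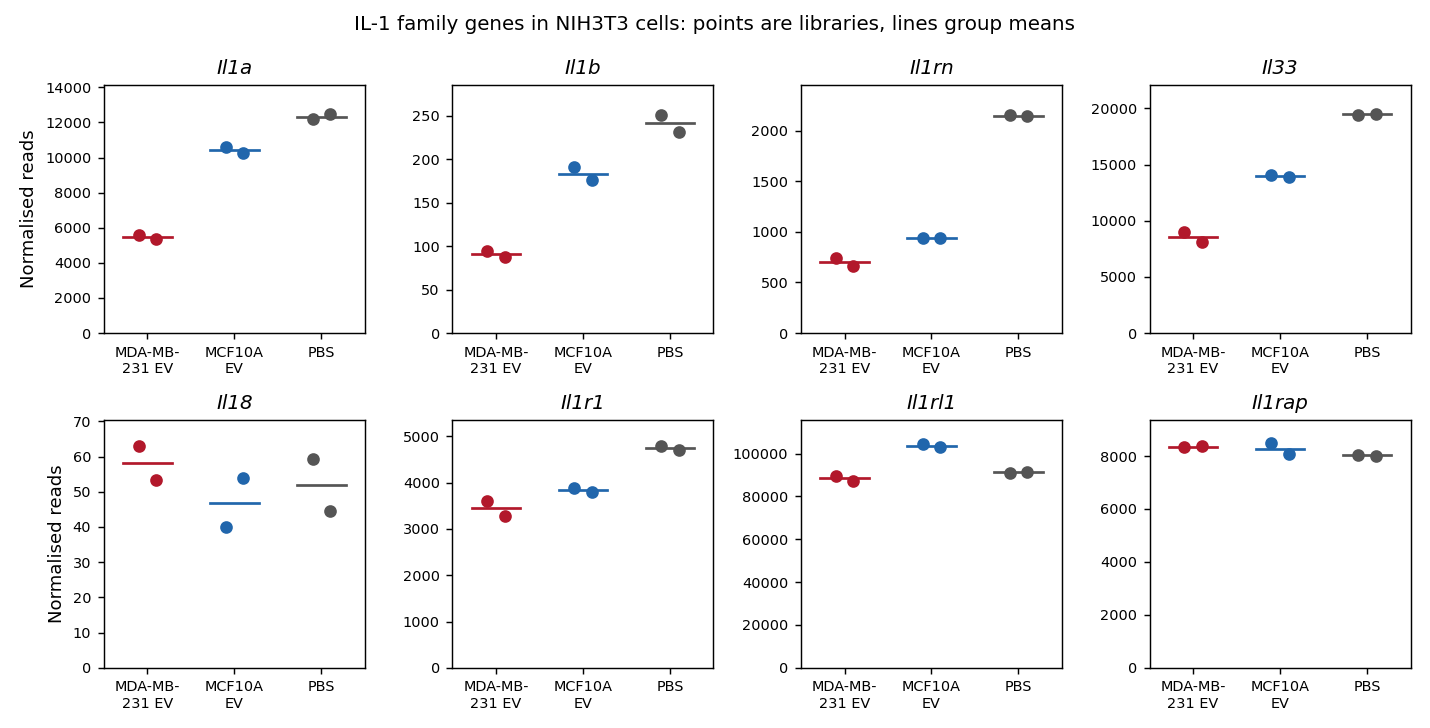
Normalised reads of the 8 IL-1 family genes (y axis from 0, own scale in each panel) in the libraries of cells given MDA-MB-231 EVs, MCF10A EVs or PBS (x axis), with points for libraries and lines for group means. Il1a, Il1b, Il1rn, Il33 and Il1r1 are lowest with MDA-MB-231 EVs and highest with PBS, Il1rl1 is highest with MCF10A EVs, and the Il18 libraries overlap.

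Il1a encodes IL-1 alpha, the cell-associated IL-1 ligand. It had 5597 and 5365 normalised reads with MDA-MB-231 EVs, 10624 and 10252 with MCF10A EVs, and 12177 and 12496 with PBS. The groups did not overlap, and the MCF10A EV libraries lay nearer to PBS than to the MDA-MB-231 EV libraries. The gene fell 2.25-fold with MDA-MB-231 EVs relative to PBS, a log2 change of -1.17 ± 0.03 (SE, limma adjusted p = 1.03e-12). With MCF10A EVs it fell 1.18-fold relative to PBS (log2 change -0.24, limma adjusted p = 3.07e-05), and it was 1.90-fold lower with MDA-MB-231 EVs than with MCF10A EVs (limma adjusted p = 9.67e-11). Il1a shares 222 exon bases with Gm14023 on the opposite strand, and whether reads were counted by strand is not given in the sources used here.

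Il1b, the gene of secreted IL-1 beta, followed the same order at a far lower level. It had 94.4 and 87.5 normalised reads with MDA-MB-231 EVs, 191 and 176 with MCF10A EVs, and 252 and 231.4 with PBS. None of the groups overlapped, but the gap between MCF10A EVs and PBS was the narrowest of the 3. Relative to PBS it fell 2.64-fold with MDA-MB-231 EVs (log2 change -1.40 ± 0.12, SE, limma adjusted p = 4.19e-07). The 1.32-fold fall with MCF10A EVs relative to PBS had a limma adjusted p of 0.0238 and did not pass with any 1 of the 4 PBS or MCF10A EV libraries left out, at log2 changes of -0.46 to -0.34 and adjusted p of 0.0608 to 0.169. It was 2.005-fold lower with MDA-MB-231 EVs than with MCF10A EVs (limma adjusted p = 4.73e-05).

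Il33 encodes the nuclear alarmin IL-33, and with Il1a it was the most abundant of the ligands per length. It had 8982 and 8145 normalised reads with MDA-MB-231 EVs, 14057 and 13924 with MCF10A EVs, and 19406 and 19511 with PBS. The 3 groups were separate, with the MCF10A EV libraries about midway. The transcript fell 2.27-fold with MDA-MB-231 EVs relative to PBS (log2 change -1.19 ± 0.04, SE, limma adjusted p = 3.99e-12) and 1.39-fold with MCF10A EVs relative to PBS (limma adjusted p = 2.24e-07). Between the EVs it was 1.64-fold lower with those of MDA-MB-231 (limma adjusted p = 5.33e-09).

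Il18 encodes IL-18, which signals through a receptor of its own. It had 62.9 and 53.4 normalised reads with MDA-MB-231 EVs, 40.0 and 53.9 with MCF10A EVs, and 59.4 and 44.6 with PBS. The libraries overlapped in every comparison. The log2 changes were 0.17, -0.15 and 0.31 with an SE of 0.23 each and limma adjusted p of 0.631, 0.686 and 0.417 for MDA-MB-231 EVs and MCF10A EVs relative to PBS and for MDA-MB-231 relative to MCF10A EVs. The first change was -0.034 without PBS replicate 2, and the second was 0.057 without PBS replicate 1 and 0.065 without MCF10A EV replicate 1, so no direction is given for Il18.

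Il1rn, the antagonist, fell with both kinds of EV. It had 741 and 665 normalised reads with MDA-MB-231 EVs, 937 and 941 with MCF10A EVs, and 2153 and 2139 with PBS. Here the MCF10A EV libraries lay near those of MDA-MB-231 EVs and far from PBS, unlike Il1a, Il1b and Il33. The fall relative to PBS was 3.05-fold with MDA-MB-231 EVs (log2 change -1.61 ± 0.05, SE, limma adjusted p = 8.64e-12) and 2.28-fold with MCF10A EVs (log2 change -1.19, limma adjusted p = 8.76e-10). It was 1.34-fold lower with MDA-MB-231 EVs than with MCF10A EVs (limma adjusted p = 6.19e-05), a call that missed the threshold without the filter (adjusted p = 0.0652) and without limma's trend (adjusted p = 0.0672). Secreted and intracellular forms of the antagonist come from the same gene and were not told apart in these gene totals.

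**Figure D2:**
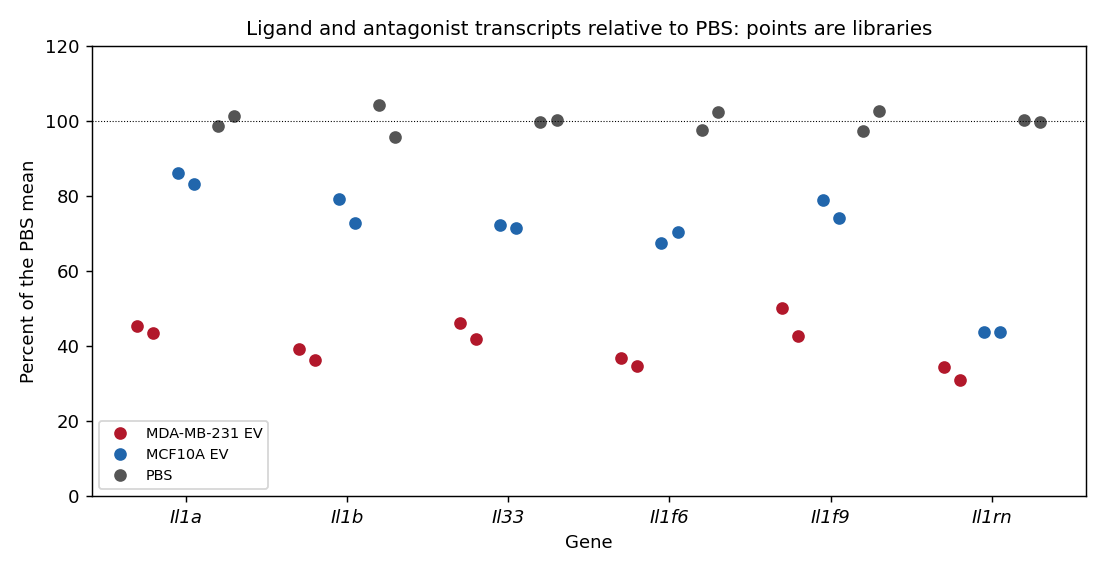
Normalised reads of the ligand genes Il1a, Il1b, Il33, Il1f6 and Il1f9 and of the antagonist Il1rn (x axis) as a percent of each gene's PBS mean (y axis from 0), with points for libraries of MDA-MB-231 EVs, MCF10A EVs and PBS. MDA-MB-231 EV libraries lie between 31.0% and 50.1%, and MCF10A EV libraries between 67.5% and 86.1% except for Il1rn, at 43.7% and 43.8%.

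As percentages of the PBS mean, the 3 ligands Il1a, Il1b and Il33 stood at 36.2% to 46.2% in the MDA-MB-231 EV libraries and at 71.6% to 86.1% in the MCF10A EV libraries. Il1rn stood at 34.5% and 31.0% with MDA-MB-231 EVs and at 43.7% and 43.8% with MCF10A EVs. The ratio of antagonist to agonist reads therefore had another order than either gene. There were 13.2 and 12.4 normalised reads of Il1rn per 100 of Il1a with MDA-MB-231 EVs, 8.82 and 9.18 with MCF10A EVs, and 17.7 and 17.1 with PBS. The ratio was lowest in both MCF10A EV libraries and highest in both PBS libraries, with no overlap, and it was not tested.

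Il1r1, the signalling receptor for IL-1 alpha and IL-1 beta, was moderately lower after EVs. It had 3604 and 3284 normalised reads with MDA-MB-231 EVs, 3884 and 3808 with MCF10A EVs, and 4798 and 4702 with PBS. Both EV groups lay below PBS, and they lay near each other without overlapping. Relative to PBS, Il1r1 fell 1.38-fold with MDA-MB-231 EVs (log2 change -0.47 ± 0.04, SE, limma adjusted p = 3.06e-07) and 1.24-fold with MCF10A EVs (log2 change -0.30, limma adjusted p = 3.53e-05). The 1.12-fold difference between the EVs (limma adjusted p = 0.0114) passed in 8 of 17 alternative analyses, and of the 6 that leave out 1 library it passed only without MDA-MB-231 EV replicate 1. Without MDA-MB-231 EV replicate 2 its log2 change was -0.09, not -0.16 (adjusted p = 0.173), and with any 1 of the MCF10A EV or PBS libraries left out the adjusted p was 0.0712 to 0.164.

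Il1rl1, the gene of the IL-33 receptor ST2, was the most abundant of the 8 transcripts per length and, in the authors' scaling, the only one to rise. It had 89779 and 87444 normalised reads with MDA-MB-231 EVs, 104469 and 102932 with MCF10A EVs, and 90917 and 91572 with PBS. The MCF10A EV libraries stood above all others, while the MDA-MB-231 EV libraries lay just below PBS. The transcript rose 1.14-fold with MCF10A EVs relative to PBS (log2 change 0.18 ± 0.03, SE, limma adjusted p = 7.25e-05) and was 1.17-fold lower with MDA-MB-231 EVs than with MCF10A EVs (limma adjusted p = 2.53e-05). For MDA-MB-231 EVs against PBS the log2 change was -0.04 (limma adjusted p = 0.243). That change turned to 0.25 with quantile scaling (limma adjusted p = 4.41e-05) and to 0.02 with scaling to library totals, and quantile scaling gave 0.45 for MCF10A EVs against PBS, so no direction is given for MDA-MB-231 EVs. Il1rl1 also encodes a soluble decoy form of ST2, which fibroblasts are known to make, and the gene totals do not separate it from the membrane receptor.

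Il1rap, the accessory chain shared by both receptors, varied least. It had 8338 and 8373 normalised reads with MDA-MB-231 EVs, 8498 and 8071 with MCF10A EVs, and 8031 and 8012 with PBS. The EV libraries lay above PBS in each case but overlapped each other. The log2 changes were 0.06 and 0.05 relative to PBS for MDA-MB-231 and MCF10A EVs and 0.01 between the EVs, with an SE of 0.03 each and limma adjusted p of 0.153, 0.283 and 0.831. With scaling to library totals the first became 0.12 and passed (limma adjusted p = 0.00258). Il1rap shares 663 exon bases with Gm20319 on the opposite strand.

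**Figure D3:**
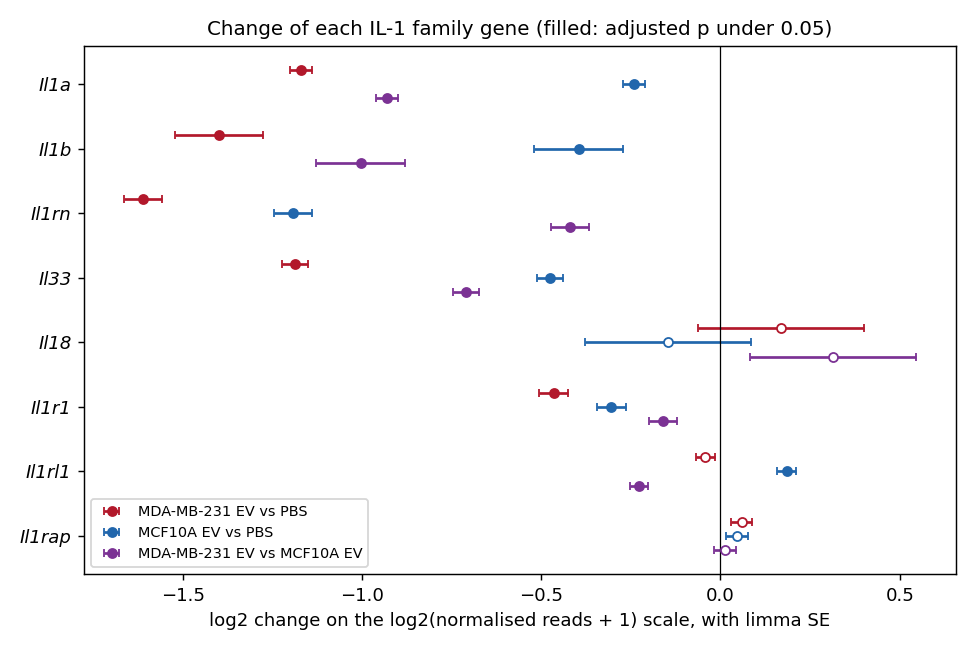
Log2 change of each IL-1 family gene (y axis) on the log2(normalised reads + 1) scale (x axis), with limma standard errors, for each kind of EV relative to PBS and for MDA-MB-231 EVs relative to MCF10A EVs, filled where the adjusted p was under 0.05. The ligands Il1a, Il1b and Il33 lie at -1.40 to -1.17 with MDA-MB-231 EVs and at -0.48 to -0.24 with MCF10A EVs relative to PBS, and Il1rn at -1.61 and -1.19.

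Levels were compared between genes as normalised reads per kilobase (kb) of exon, with exon lengths of the GENCODE M21 annotation. These lengths join all annotated exons of a gene, and which transcript forms the cells used was not measured. The SDs do not cover error in the lengths. Il1rl1 averaged 12962 ± 242 with MDA-MB-231 EVs, 15170 ± 159 with MCF10A EVs and 13348 ± 67.8 with PBS (SD, n = 2 each). Il33 averaged 3286 ± 227 with MDA-MB-231 EVs, 5369 ± 36.1 with MCF10A EVs and 7467 ± 28.5 with PBS reads per kb, and Il1a 2777 ± 83.3, 5288 ± 133 and 6249 ± 114 in the same groups. With MCF10A EVs these 2 ligands differed by less than the SD of Il1a, whereas Il33 was above Il1a in the other groups.

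At the middle of the range, per kb, Il1rap averaged 971, 963 and 933 reads with MDA-MB-231 EVs, MCF10A EVs and PBS. In that order of groups, Il1r1 averaged 563, 629 and 777 reads per kb and Il1rn 260, 347 and 793. Per length the antagonist was thus below the receptor Il1r1 after both kinds of EV and close to it with PBS. Il1b averaged 67.1, 135 and 178 reads per kb and Il18 56.4, 45.5 and 50.4. With MDA-MB-231 EVs these 2 lowest genes were close, with SDs of 3.62 for Il1b and 6.52 for Il18.

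**Figure D4:**
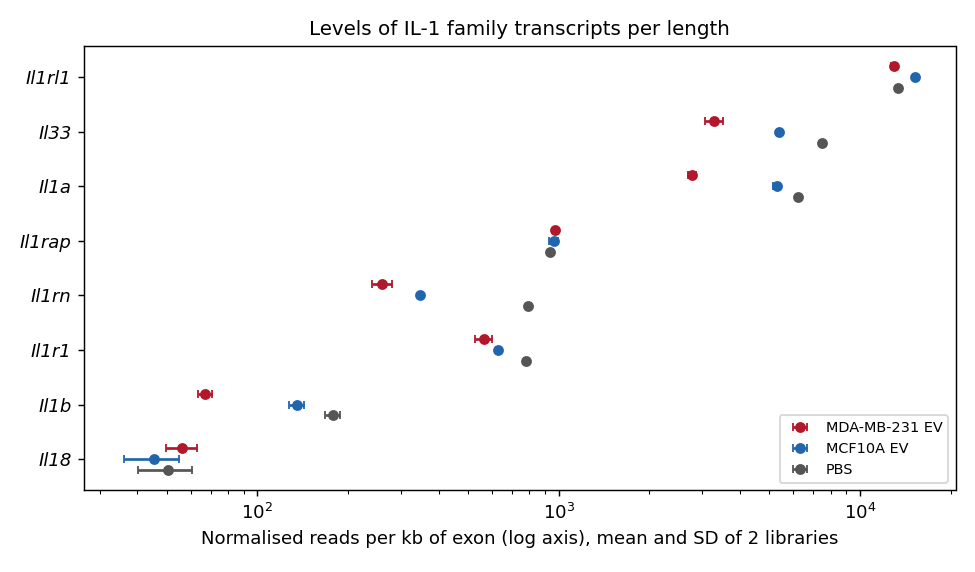
Normalised reads per kb of exon (x axis, log scale) of the 8 genes (y axis), as mean and SD of 2 libraries for MDA-MB-231 EVs, MCF10A EVs and PBS. Il1rl1, at 12962 to 15170, is above the other genes in every group, and Il1b and Il18 are lowest.

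For the IL-33 receptor and its ligand, there were 10.0 and 10.7 normalised reads of Il1rl1 per read of Il33 with MDA-MB-231 EVs, 7.43 and 7.39 with MCF10A EVs, and 4.68 and 4.69 with PBS. The ratio was highest in both MDA-MB-231 EV libraries and lowest in both PBS libraries, with no overlap, and it was not tested. The ratio of Il1a to Il1b reads varied less, at 59.3 and 61.3 with MDA-MB-231 EVs, 55.6 and 58.3 with MCF10A EVs, and 48.4 and 54.0 with PBS.

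The rest of the IL-1 family held 2 more ligands with the pattern of Il1a and Il33. The table lists 13 of these other genes, the IL-36 ligands and Il1f10 under older symbols, and 11 were tested: with MDA-MB-231 EVs 4 fell and 0 rose relative to PBS, with MCF10A EVs 2 fell and 1 rose relative to PBS, and 3 were lower and 0 higher with MDA-MB-231 than with MCF10A EVs. Over all genes tested, 34.8%, 31.7% and 16.9% were called in these comparisons, with 16.9%, 14.6% and 10.1% lower and 17.9%, 17.1% and 6.84% higher. The median log2 changes of the 11 genes were -0.20, 0.15 and -0.46 in that order. At an unadjusted p under 0.05 in limma, and with edgeR and DESeq2, 0 were likewise higher with MDA-MB-231 EVs than with PBS or MCF10A EVs. Among all genes, 3311, 2836 and 1756 were higher than with PBS in these settings, and 1928, 1351 and 577 were higher than with MCF10A EVs. Without limma's trend, Il18r1, named here after its values were seen, was called higher with MDA-MB-231 EVs than with PBS (log2 change 0.47, limma adjusted p = 0.0205). The count of 4 that fell was 2 without the filter, with a filter of 5 CPM, with edgeR or DESeq2, and without PBS replicate 2 or either MDA-MB-231 EV library.

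Il1f6, the older symbol for IL-36 alpha, had 628 and 589 normalised reads with MDA-MB-231 EVs, 1146 and 1195 with MCF10A EVs, and 1659 and 1737 with PBS. Il1f9, the older symbol for IL-36 gamma, had 658 and 559.6 with MDA-MB-231 EVs, 1037 and 973 with MCF10A EVs, and 1278 and 1346 with PBS. Both were ordered like the IL-1 ligands, with no overlap between groups. Relative to PBS, Il1f6 fell 2.79-fold with MDA-MB-231 EVs (limma adjusted p = 1.58e-11) and 1.45-fold with MCF10A EVs (limma adjusted p = 1.99e-06). Il1f9 fell 2.16-fold with MDA-MB-231 EVs (limma adjusted p = 9.88e-09) and 1.31-fold with MCF10A EVs (limma adjusted p = 0.000518). Between the EVs both were lower with those of MDA-MB-231, Il1f6 1.92-fold (limma adjusted p = 9.26e-09) and Il1f9 1.65-fold (limma adjusted p = 3.25e-06). Without the filter and without limma's trend, Il1f9 was not called for MCF10A EVs relative to PBS (adjusted p = 0.108 and 0.0755) or between the EVs (adjusted p = 0.0613 and 0.0568).

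The receptors for other ligands of the family moved less. Il1rl2, the IL-36 receptor, averaged 227, 256 and 227 normalised reads with MDA-MB-231 EVs, MCF10A EVs and PBS and was not called. Il18rap, the accessory chain of the IL-18 receptor, averaged 225 ± 16.2 with MDA-MB-231 EVs, 309 ± 4.82 with MCF10A EVs and 223 ± 34.3 with PBS (SD, n = 2 each). Il18rap rose 1.39-fold with MCF10A EVs relative to PBS (limma adjusted p = 0.00486, 0.0979 without PBS replicate 2) and was 1.37-fold lower with MDA-MB-231 than with MCF10A EVs (limma adjusted p = 0.0113, 0.112 to 0.193 with any 1 library of either EV group left out). Without MCF10A EV replicate 1 or replicate 2 the rise relative to PBS had adjusted p of 0.0544 and 0.0727.

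Among weakly measured members, Il18r1, the IL-18 receptor, averaged 40.0, 37.0 and 28.6 normalised reads with MDA-MB-231 EVs, MCF10A EVs and PBS, and the IL-18 binding protein gene Il18bp 45.8, 48.1 and 44.3. Neither was called, nor were Sigirr, at 13.0, 14.2 and 15.1, the decoy receptor gene Il1r2, at 1.04, 4.77 and 4.43, and Il1rapl1, at 0.528, 0.882 and 0.476. Il1f5, the IL-36 receptor antagonist, had 8.12 and 7.48 normalised reads with MDA-MB-231 EVs, 19.2 and 13.3 with MCF10A EVs, and 19.4 and 13.9 with PBS. Its fall with MDA-MB-231 EVs relative to PBS (limma adjusted p = 0.0439) passed in 2 of 16 alternatives and did not pass with any 1 of the 6 libraries left out (adjusted p = 0.0534 to 0.238). Il1f10 had 0 reads in both MDA-MB-231 EV libraries, 0.0251 and 2.63 normalised reads with MCF10A EVs and 2.21 and 3.76 with PBS. These levels are near 3 reads, so no fold is given beside its limma adjusted p of 0.0464 for MDA-MB-231 EVs against PBS, which was 0.116 to 0.229 with any 1 library of these groups left out. Il1f8 was not tested, and Il1rapl2 was at 0 in every library.

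Genes that carry the signal from the receptors to NF-kB had median changes near 0. Of 20 tested, 7 fell and 1 rose with MDA-MB-231 EVs relative to PBS, 4 fell and 1 rose with MCF10A EVs relative to PBS, and 1 was lower with MDA-MB-231 than with MCF10A EVs. Over all genes, 34.8%, 31.7% and 16.9% were called in these comparisons. By direction, 16.9%, 14.6% and 10.1% were lower and 17.9%, 17.1% and 6.84% higher. The list's median log2 changes were -0.04, -0.08 and 0.00. Irak3, an inhibitory IRAK, averaged 965 ± 59.8 normalised reads with MDA-MB-231 EVs and 988 ± 66.2 with MCF10A EVs, against 1295 ± 18.8 with PBS (SD, n = 2 each), falling 1.34- and 1.31-fold (limma adjusted p = 2.95e-05 and 9.61e-05). Traf6, the ubiquitin ligase downstream of the IRAKs, fell 1.24- and 1.23-fold in the same comparisons (limma adjusted p = 0.000389 and 0.000551, but 0.0523 and 0.0625 without the filter). Without the filter the second call was lost for Irak3 also (limma adjusted p = 0.0565). The adaptor gene Tab2 fell 1.13-fold with MDA-MB-231 EVs and 1.11-fold with MCF10A EVs relative to PBS (limma adjusted p = 0.00157 and 0.00578). The first fall did not pass without the filter or without the trend (limma adjusted p = 0.0855 and 0.0804). It also did not pass without PBS replicate 1 (log2 change -0.15) or without either MDA-MB-231 EV library (-0.18 each). Peli2, a ubiquitin ligase acting on IRAKs, fell 1.13-fold with MDA-MB-231 EVs and 1.20-fold with MCF10A EVs relative to PBS (limma adjusted p = 0.00226 and 0.000111). Neither gene was called between the EVs (limma adjusted p = 0.718 and 0.16). Alternatives were not examined for Tab2 with MCF10A EVs or Peli2 with MDA-MB-231 EVs. The gene that rose was Ube2n, a ubiquitin-conjugating enzyme named here after its values were seen, by log2 changes of 0.11 and 0.19. The first of these was not called with either PBS library left out (limma adjusted p = 0.166 and 0.052), without MDA-MB-231 EV replicate 1 (0.139), without the filter, without the trend or with DESeq2, nor the second without the trend (limma adjusted p = 0.0516). Irak2 was the gene called between the EVs (log2 change -0.35, limma adjusted p = 0.0472) and passed in 4 of 17 alternatives, with adjusted p of 0.0814 to 0.199 with any 1 of the 6 libraries left out. Without PBS replicate 1, or without MDA-MB-231 EV replicate 2, the calls with MDA-MB-231 EVs relative to PBS were 4 in all, not 8.

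Of 17 genes for processing and release of IL-1 family ligands, 4 fell and 2 rose with MDA-MB-231 EVs relative to PBS, 2 fell and 2 rose with MCF10A EVs relative to PBS, and 3 were lower with MDA-MB-231 than with MCF10A EVs, with medians of -0.05, -0.0048 and -0.04. The shares called over all genes were 34.8%, 31.7% and 16.9%, with 16.9%, 14.6% and 10.1% lower and 17.9%, 17.1% and 6.84% higher. Ninj1, a mediator of plasma membrane rupture, averaged 622 ± 31.0 with MDA-MB-231 EVs and 696 ± 3.09 with MCF10A EVs, against 843 ± 7.83 normalised reads with PBS (SD, n = 2 each), falling 1.35- and 1.21-fold (limma adjusted p = 2.31e-05 and 0.00184). Casp4, which encodes the caspase of the non-canonical inflammasome, fell 1.33- and 1.29-fold (limma adjusted p = 5.97e-05 and 0.00023). Capn2, a calpain subunit, a protease class that cleaves pro-IL-1 alpha, was 1.11-fold lower with MDA-MB-231 EVs than with PBS and 1.14-fold lower than with MCF10A EVs (limma adjusted p = 0.000352 and 0.000157). The first was not called with quantile scaling (log2 change -0.053, limma adjusted p = 0.0637) and the second was not called without the trend (limma adjusted p = 0.079). Gsdmd, which encodes the pore former gasdermin D, rose 1.14-fold with MCF10A EVs relative to PBS and was 1.18-fold lower with MDA-MB-231 than with MCF10A EVs (limma adjusted p = 0.00135 and 0.0005, the second 0.0622 without MDA-MB-231 EV replicate 2), and neither was called without the filter (limma adjusted p = 0.0647 and 0.075) or without the trend (limma adjusted p = 0.0694 and 0.0937). Nlrp3 had 0 reads in both MDA-MB-231 EV libraries, 2.19 and 4.30 normalised reads with MCF10A EVs and 2.17 and 1.86 with PBS, near 3 reads, so no fold is given beside its limma adjusted p of 0.0329 between the EVs, which was 0.0561 to 0.183 with any 1 of the 6 libraries left out. Casp1, the gene of caspase-1, averaged only 11.4, 8.53 and 15.6 with MDA-MB-231 EVs, MCF10A EVs and PBS and was not called. Without MDA-MB-231 EV replicate 2, 1 of the 3 calls between the EVs was made.

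NF-kB subunit and feedback genes were lower in most cases with MDA-MB-231 EVs relative to PBS. Of 12 tested, 9 fell and 0 rose with MDA-MB-231 EVs relative to PBS, 4 fell and 0 rose with MCF10A EVs relative to PBS, and 5 were lower and 0 higher with MDA-MB-231 than with MCF10A EVs, with medians of -0.22, -0.15 and -0.10. Over all genes, 16.9%, 14.6% and 10.1% were lower and 17.9%, 17.1% and 6.84% higher. At an unadjusted p under 0.05 in limma, 0, 0 and 1 were higher in these comparisons, with edgeR 0, 0 and 1, and with DESeq2 0 in each. Among all genes, 3311, 3219 and 1928 were higher in limma in this way, 2836, 2644 and 1351 with edgeR, and 1756, 1646 and 577 with DESeq2. Nfkbiz, which encodes an IL-1-inducible nuclear IkB protein, averaged 4410.2 ± 54.3 with MDA-MB-231 EVs, 5445 ± 97.9 with MCF10A EVs and 7839 ± 182 normalised reads with PBS (SD, n = 2 each). Nfkbiz fell 1.78-fold with MDA-MB-231 EVs and 1.44-fold with MCF10A EVs relative to PBS (limma adjusted p = 3.03e-11 and 1.4e-08). Tnfaip3, the gene of the deubiquitinase A20, averaged 404 ± 6.03 with MDA-MB-231 EVs, 589 ± 28.6 with MCF10A EVs and 586 ± 11.8 with PBS, and fell 1.45-fold with MDA-MB-231 EVs relative to PBS (limma adjusted p = 1.35e-05). With MCF10A EVs relative to PBS its log2 change was 0.01 (limma adjusted p = 0.963). Nfkb1 fell 1.13- and 1.17-fold with MDA-MB-231 and MCF10A EVs relative to PBS (limma adjusted p = 0.000131 and 2.24e-05). Without MCF10A EV replicate 2, or without MDA-MB-231 EV replicate 2, the calls between the EVs were 3, not 5.

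Genes that IL-1 is known to induce in fibroblasts were lower in most cases. Of 23 tested, 18 fell and 1 rose with MDA-MB-231 EVs relative to PBS, 14 fell and 3 rose with MCF10A EVs relative to PBS, and 15 were lower and 2 higher with MDA-MB-231 than with MCF10A EVs. All genes tested were lower in 16.9%, 14.6% and 10.1% of cases and higher in 17.9%, 17.1% and 6.84%. The list's median log2 changes were -0.89, -0.47 and -0.49. Lif, a cytokine of the interleukin-6 family, had log2 changes of -1.90 and -0.96 relative to PBS with MDA-MB-231 and MCF10A EVs (limma adjusted p = 3.58e-14 and 2.26e-10). Ptgs2, the inducible cyclooxygenase, was 2.59-fold lower with MDA-MB-231 EVs than with MCF10A EVs (limma adjusted p = 6.68e-11). Saa3, an acute phase gene, averaged 10947 ± 26.3 with MDA-MB-231 EVs, 8656 ± 115 with MCF10A EVs and 22356 ± 1051 with PBS, and Lcn2, the siderophore-binding lipocalin, 457 ± 44.8, 339 ± 3.76 and 1194 ± 49.9 (SD, n = 2 each). Like Il1rn, Saa3 and Lcn2 were far below PBS with MCF10A EVs. Unlike it, they were lower with MCF10A EVs than with MDA-MB-231 EVs. Their log2 changes for MDA-MB-231 relative to MCF10A EVs were 0.34 and 0.43 (limma adjusted p = 2.85e-06 and 0.000845). Alternatives were not examined for Saa3 and Lcn2 between the EVs. The chemokine gene Ccl7 rose in both comparisons with PBS. With MCF10A EVs it rose 1.35-fold, the adhesion molecule gene Vcam1 1.38-fold and the stromelysin gene Mmp3 1.13-fold (limma adjusted p = 3.74e-08, 1.71e-08 and 0.000219). With MDA-MB-231 EVs relative to PBS, Mmp3 fell 1.49-fold (limma adjusted p = 7.1e-10) and Vcam1 was not called (limma adjusted p = 0.241). Mmp3 was 1.69-fold lower with MDA-MB-231 EVs than with MCF10A EVs (limma adjusted p = 2.33e-10). The rise of Ccl7 with MDA-MB-231 EVs was a log2 change of 0.09 (limma adjusted p = 0.0153), and it was not called without PBS replicate 2 (0.162), without MDA-MB-231 EV replicate 1 (0.105), without the filter (0.0739) or without the trend (0.146). The rise of Mmp3 with MCF10A EVs was not called without the filter or the trend (limma adjusted p = 0.0627 and 0.0634). Ccl7 and Vcam1 were named after their values were seen.

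**Figure D5:**
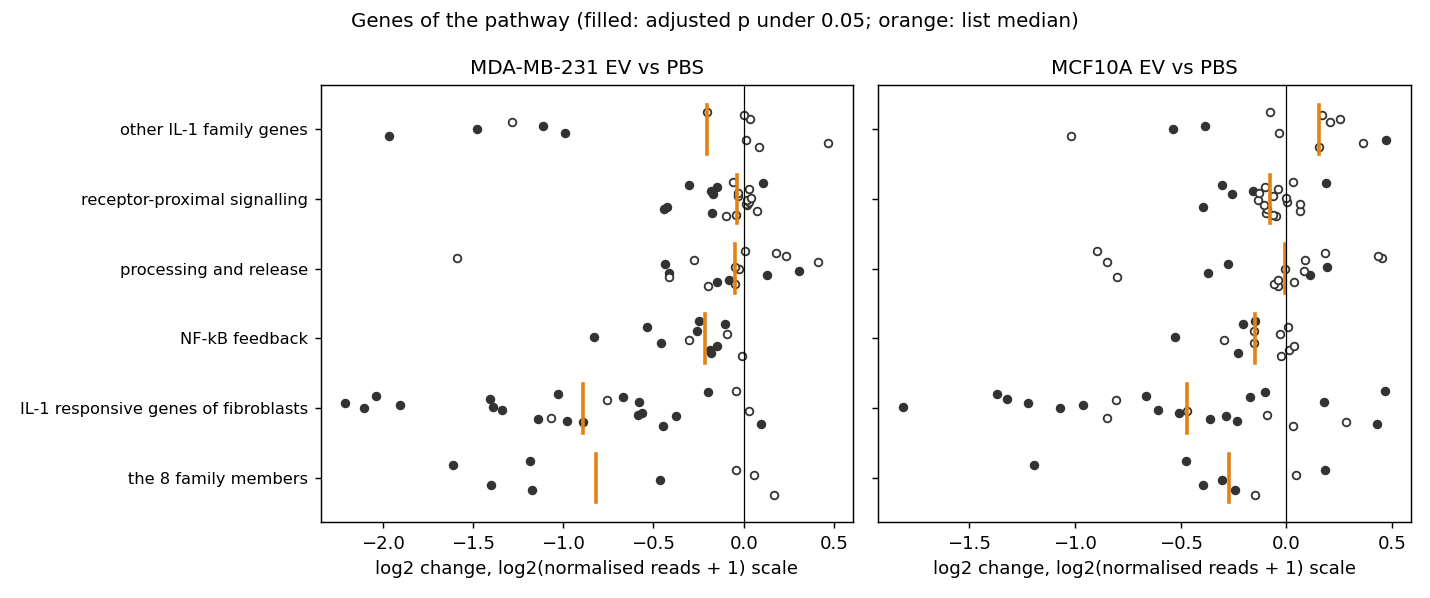
Log2 change on the log2(normalised reads + 1) scale (x axis) of genes of the IL-1 pathway by list (y axis) for MDA-MB-231 EVs and MCF10A EVs, each against PBS, with points for genes, filled where the limma adjusted p was under 0.05, and orange bars for list medians. The medians of the 8 family members, -0.82 and -0.27, and of the IL-1 responsive genes, -0.89 and -0.47, lie furthest below 0. The lists were chosen with earlier results of these data known.

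The genes whose levels over the 6 libraries were most like those of each member were found by the root mean square (RMS) of the difference between log2 deviations from the gene's own mean, among the 9829 genes averaging 5 CPM or more. For Il1a they were Trib3, Fst and Tnc, at 0.034 to 0.049, for Il1b Daf2, Ereg and Cd55, at 0.049 to 0.053, and for Il33 Procr, Il1f9 and Cxcl1, at 0.037 to 0.058. These members' own deviations spanned 1.22, 1.51 and 1.26 log2 units, so the likeness was close. Il1rn had more distant nearest genes, Lpl, Vegfa and Nr4a1, at 0.081 to 0.11 of a span of 1.69. Il1r1 was nearest to Selk, Tsc22d1 and Sec23a, at 0.015 to 0.028 of a span of 0.55. Il1rl1 was nearest to Ctsl, Tmppe and Lrig1, at 0.0077 to 0.014 of a span of 0.26. Il1rap was nearest to Pdhb, Arfgap2 and Cep350, at 0.014 to 0.015, but its own span was only 0.085. Il18 was below the level set. The 6 libraries share groups and adjustment, so these distances are descriptions.

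Many marker genes of other cell types that express IL-1 family genes were at or near 0. Of 12 macrophage and leukocyte symbols listed, 10 were in the table, and Adgre1, the newer symbol of Emr1, was not. Emr1 and Tyrobp had 0 reads in every library, and Ptprc, the gene of the pan-leukocyte antigen CD45, reached at most 1.05 normalised reads. The list nevertheless summed to 1003 to 1065 normalised reads with MDA-MB-231 EVs, 1789 to 1842 with MCF10A EVs and 3045 to 3156 with PBS, almost all of it Cd14, a lipopolysaccharide co-receptor gene. Of 7 tested, Cd14 and Csf1r fell with MDA-MB-231 EVs relative to PBS and Cd14 with MCF10A EVs relative to PBS. Csf1r averaged 27.6, 80.8 and 78.5 normalised reads with MDA-MB-231 EVs, MCF10A EVs and PBS. Of the others tested, Aif1, at 4.69, 7.13 and 8.06, shared the ranking of groups seen for Cd14. Lyz2, at 17.7, 12.3 and 17.2, Itgam, at 3.11, 1.91 and 1.01, Fcer1g and Cx3cr1 did not, and none of these others was called. Among 10 mast cell and type 2 lymphocyte markers, Kit, Cpa3, Mcpt4, Fcer1a and Cd3e were at 0, and the sum, mostly Rora, was 563 to 579, 552 to 554 and 769 to 802 in the same order of groups. Of 8 endothelial markers Emcn was at 0, and the sum, mostly Cdh5, was 158 to 194, 296 to 345 and 356 to 364. Of 8 epithelial markers Krt5, Krt18, Epcam and Esrp1 were at 0, and the sum, mostly Krt8, was 28.5 to 36.1, 35.4 to 40.7 and 44.6 to 48.7. Krt8 averaged 28.7, 35.3 and 46.1 and was not called relative to PBS (limma adjusted p = 0.0506 and 0.298) or between the EVs (limma adjusted p = 0.487). Cdh5, the gene of VE-cadherin, averaged 160.0, 304 and 347 normalised reads with MDA-MB-231 EVs, MCF10A EVs and PBS. Cdh5 fell with MDA-MB-231 EVs relative to PBS (limma adjusted p = 1.8e-06) and was lower with them than with MCF10A EVs (limma adjusted p = 4.75e-05, but 0.0706 without the filter). Rora fell with both kinds of EV relative to PBS (limma adjusted p = 2.24e-05 and 1.29e-05). The endothelial gene Esam, at 7.30, 5.72 and 1.49 reads, and the epithelial cadherin gene Cdh1, at 3.11, 2.35 and 0, rose with both kinds of EV (limma adjusted p = 0.0107 and 0.0336 for Esam, 0.0177 and 0.0397 for Cdh1), at few reads and not called with some single libraries left out. Cdh5, Rora, Krt8, Esam and Cdh1 were named after their values were seen. The part of these levels in the results was not tested, and in bulk libraries fewer cells of a type and less RNA per cell cannot be told apart.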

How the data were processed

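RNA-seq was run on 6 NIH3T3 libraries made with a stranded mRNA kit from TRIzol RNA, per the labels' protocols. TopHat2 and edgeR are named in the submitters' processing notes, with the human build hg19, although the rows are mouse genes. The sources used here do not give the mouse build, counter, strand setting or annotation. The authors deposited normalised signal, which the values show to be edgeR pseudo-counts adjusted with the group labels. Inverting that adjustment returned whole reads for 122850 of 122850 values within a relative 1e-06.

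log2(value + 1) was tested with limma 3.58.1 (R 4.3.3, eBayes with trend, 1 model of 3 group means over 6 libraries) for 15025 of 20475 genes that reached 1 normalised read in 2 or more libraries, with Benjamini-Hochberg adjustment and a threshold of 0.05. The plan had expected counts or CPM, and the test it set for normalised values was used. Alternatives were other pseudocounts, filters and scalings, limma without trend, 2 groups alone, a replicate block, edgeR 4.0.16 and DESeq2 1.42.0 on recovered reads, and each library left out. The tests were checked on simulated data in which all genes had the same dispersion, the setting for spread beyond counting error. That check therefore does not cover spread that differs between genes. Replicates differed beyond sampling noise (chi-square per degree of freedom 1.63 to 2.24).

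The members and lists were chosen with earlier results of these data known. Named were the 8 members, every tested gene of the other family list, up to 3 called genes with the smallest adjusted p per list and comparison, and the 3 genes most like each member, without predicted genes. Symbols matched an exon length for 19606 of 20475 genes, 95.8%, and for 8 of 8 members, and 131 of 137 list entries matched the table. Some genes were listed under both an older and a newer symbol, so an unmatched entry need not be an absent gene.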

Additional observations from a re-analysis of the deposited data

How the results depend on the processing

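The 17 alternatives kept the direction and call of Il1a, Il1b, Il1rn, Il33 and Il1r1 for MDA-MB-231 EVs against PBS, with ranges of the log2 change of -1.20 to -1.10, -1.46 to -1.34, -1.69 to -1.53, -1.26 to -1.12 and -0.53 to -0.40. Among the 8 genes, the calls for MCF10A EVs against PBS were 3, not 6, without the filter, and those for MDA-MB-231 against MCF10A EVs were 3, not 6, without the filter and 3 without limma's trend. Over all genes, the calls for MDA-MB-231 EVs against PBS were 3286 without the filter, 3346 without the trend and 3476 to 4828 with single libraries left out, against 5231. For MCF10A EVs against PBS they were 2433, 2231 and 2810 to 3983 in the same settings, against 4764. For MDA-MB-231 against MCF10A EVs they were 711, 378 and 721 to 1698, and 1515 with DESeq2, against 2541. Leaving out a library leaves a lone sample, assumed to vary like the other groups. Reversed values without a call were those of Il18, with single libraries left out at -0.034 to 0.37 for MDA-MB-231 EVs against PBS and -0.36 to 0.065 for MCF10A EVs against PBS, and of Il1rap between the EVs, at -0.024 to 0.050. Il1rl1 turned to 0.024 for MDA-MB-231 EVs against PBS with library totals and to 0.25 with quantile scaling, which sets a value by its rank in the library, and Il1rl1 ranked 7 by reads with MDA-MB-231 EVs and 10 to 11 with PBS. For MCF10A EVs against PBS, Il1b missed the threshold also without the filter (adjusted p = 0.0697) and with DESeq2 (adjusted p = 0.0848), and Il1r1 and Il1rl1 missed it without the filter (adjusted p = 0.052 and 0.271). Between the EVs, Il1rl1 missed it without the filter (adjusted p = 0.268) and without the trend (adjusted p = 0.0676). Of the pathway lists, without the filter the counts of calls were 2, 1 and 1 for the other family genes (4, 3 and 3 in the report, the comparisons in the order above), 3, 2 and 0 for receptor-proximal genes (8, 5 and 1), 2 and 1 for processing genes in the last 2 comparisons (4 and 3) and 5 and 3 for NF-kB genes in the first and last (9 and 5). Without the trend they were 1 for the other family genes in the last comparison, 3, 2 and 0 for receptor-proximal genes, 0 for processing genes in the last comparison, and 5 and 1 for NF-kB genes in the first and last. edgeR made 7 calls, not 4, among NF-kB genes for MCF10A EVs against PBS. The cause of these changes was not tested. The filter of 5 CPM removed Il18. Same-numbered replicates did not deviate together (correlations of 0.027, 0.018 and -0.011), and with the replicate number as a block all 24 member results kept their call, with 5187, 4746 and 2560 calls over all genes. No scaling moved the median of all genes by more than 0.066 log2 units. Among the 8 genes Il18 had the largest SE, 0.23.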
